A study of Homo sapiens with 4 samples.

Results

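The 8 genes described here encode proteins that promote or limit the formation of circular RNAs, together with the RNA-editing enzyme ADAR and the kinase PKR, the product of EIF2AK2. They are ADAR, EIF2AK2, DHX9, ILF2, QKI, MBNL1, RBM20 and HNRNPL. They were chosen by name, and all 8 were found among the 35211 genes of the deposited count table and passed the filter on low counts that left 21731 genes for testing. RNA had been sequenced from 4 libraries of PC3 and DU145, long-established lines of prostate cancer cells. PC3 cells carried a circ0003553 overexpression plasmid in 1 library and a negative control plasmid in another, and DU145 cells carried the same plasmids in the remaining libraries. Circ0003553 is a circular RNA; the treatment labels name it, while the sample titles name the gene RCAN3. All 4 groups thus had been transfected, no untransfected cells were analysed here, and each group held a single library.

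A circular RNA forms when a downstream splice donor joins an upstream acceptor, a reaction called back-splicing. Base pairing between inverted repeats in the flanking introns brings the splice sites together. DHX9 unwinds such pairs and ADAR edits adenosines within them, and both thereby limit back-splicing. ILF2 is a subunit of a nuclear complex that binds RNA duplexes. QKI, MBNL1, RBM20 and HNRNPL bind intron or exon sequences directly and have been linked to the formation of particular circular RNAs. PKR is activated by long RNA duplexes and then phosphorylates the translation factor eIF2. Circular RNAs with short imperfect duplexes can bind PKR and hold it inactive. EIF2AK2 and the longer isoform of ADAR are also known targets of interferon signalling.

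The promoter sequences of EIF2AK2 and ADAR are shown because these genes had the highest plasmid ratios of the 8 and both are known to respond to interferon. Windows run from 250 bases before to 50 bases after a RefSeq gene start (GRCh38.p14, 5′ to 3′ on the gene's strand). The EIF2AK2 window lies at chr2:37156931-37157230 on the minus strand, and ADAR windows lie at chr1:154627948-154628247 and chr1:154608748-154609047, also on the minus strand. Capitals mark the letters GAAANNGAAA, a core of the interferon-stimulated response element, searched on both strands.
EIF2AK2: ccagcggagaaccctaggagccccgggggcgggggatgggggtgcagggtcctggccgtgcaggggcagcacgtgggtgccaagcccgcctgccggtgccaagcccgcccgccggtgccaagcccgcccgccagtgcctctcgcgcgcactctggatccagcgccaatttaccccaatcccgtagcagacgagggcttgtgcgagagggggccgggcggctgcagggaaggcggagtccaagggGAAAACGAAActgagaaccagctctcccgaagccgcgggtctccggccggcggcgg
ADAR upstream start: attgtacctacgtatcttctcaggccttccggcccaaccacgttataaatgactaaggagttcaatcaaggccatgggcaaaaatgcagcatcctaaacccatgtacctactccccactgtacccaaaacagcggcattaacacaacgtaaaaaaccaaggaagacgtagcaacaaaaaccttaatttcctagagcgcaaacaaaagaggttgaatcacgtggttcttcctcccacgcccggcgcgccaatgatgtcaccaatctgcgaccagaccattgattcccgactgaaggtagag
ADAR downstream start: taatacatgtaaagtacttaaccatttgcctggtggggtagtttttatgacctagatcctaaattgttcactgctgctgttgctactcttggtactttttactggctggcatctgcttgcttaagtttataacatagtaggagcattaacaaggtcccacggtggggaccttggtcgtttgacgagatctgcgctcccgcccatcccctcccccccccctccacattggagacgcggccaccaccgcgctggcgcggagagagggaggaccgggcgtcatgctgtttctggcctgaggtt
The EIF2AK2 window held 1 match, GAAAACGAAA, which began 6 bases before the RefSeq start at 37156980. In GENCODE 29, EIF2AK2-201, which codes for 551 residues, starts farther upstream, at 37157047 on the same strand. Counted from that start, the match lies inside the span of the transcript and not before it. None of the 3 ADAR windows in the table held a match. In GENCODE 29, ADAR-202, a transcript that codes for a protein of 1226 residues, starts at 154608186 on chromosome 1, outside these windows, and ADAR-201, which codes for 931 residues, starts at 154627968. Of the 7 genes with a window (QKI is the gene without), EIF2AK2 alone had a match, beside 1195 of 27305 genes (4.38%) with a window and 3.57% of all 35116 windows. In the list of interferon-stimulated genes used below, 13 of the 19 with a window had a match. That list was known to be high in these data when it was chosen. A match describes letters and is not evidence of binding.

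Libraries held 39488890 counts for PC3 with circ0003553, 33438509 for PC3 with control, 36461229 for DU145 with circ0003553 and 38047428 for DU145 with control. RCAN3 had 3798 counts in PC3 with circ0003553, against 1212 in the PC3 control. In DU145 it had 816 counts with circ0003553, against 639 in the control. A count per gene adds up linear transcripts and any circular ones. Of the markers checked, 5 epithelial genes were summed as CPM (counts scaled to a common library size). With circ0003553 and control, the sums were 1190 and 1216 CPM in PC3 and 5199 and 4561 CPM in DU145. KRT8 alone had 19117 and 15637 counts in PC3 and 112105 and 103473 in DU145. The sums follow such abundant genes, and not every gene of the set followed the sum between plasmids in DU145. Over the 4 libraries, 4 leukocyte genes summed to between 0.657 and 1.08 CPM.

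Per length, ILF2 was the most abundant of the 8 genes and RBM20 the least abundant in all 4 libraries. ILF2 had 109 RPKM (counts scaled by gene length and library size, as the authors deposited) in PC3 with circ0003553, 115 in the PC3 control, 203 in DU145 with circ0003553 and 222 in the DU145 control. RBM20 had 1.97, 1.89, 0.235 and 0.251 RPKM in the same libraries. In PC3 the order was ILF2, HNRNPL, DHX9, ADAR, MBNL1, EIF2AK2, QKI and RBM20 under either plasmid. In DU145 ADAR stood second, followed by DHX9 and HNRNPL, and the other ranks were the same. HNRNPL, at 26.3 and 25.0 RPKM in PC3 and 32.1 and 35.0 in DU145 (circ0003553 and control), had a range over the 4 libraries that overlapped those of DHX9 and ADAR. The levels of these 3 neighbours in the order were thus not separated over all libraries. The positions and lengths below are those of the deposited table (hg38).

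**Figure D1:**
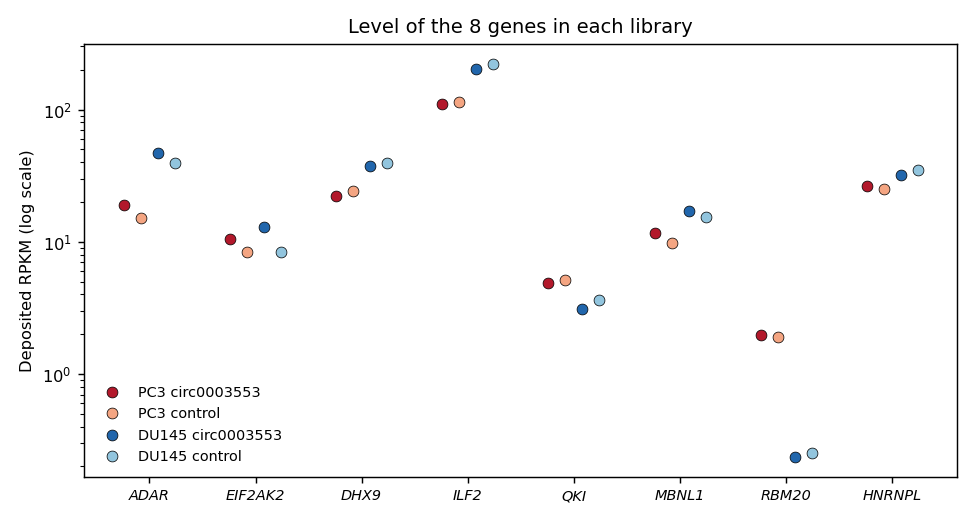
Deposited RPKM of the 8 genes on a log axis, with 1 point per library and no error bars, since each group held 1 library. RBM20 lies near 2 RPKM in the PC3 libraries and near 0.24 in the DU145 libraries, and ADAR is the other gene whose points are farthest apart.

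The spread over the libraries differed between genes. Scaled by the trimmed mean of M values (TMM), the highest library was 8.59 times the lowest for RBM20, 3.01 times for ADAR, 1.92 for ILF2, 1.74 for QKI, 1.68 for MBNL1, 1.67 for DHX9, 1.57 for EIF2AK2 and 1.30 for HNRNPL. The median over tested genes with counts in every library was 1.97. For 7 of the 8 genes the highest and lowest library came from different lines. EIF2AK2 was the exception, with its highest and lowest level in the DU145 libraries.

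The first comparison asked how the genes differed with circ0003553 plasmid from control plasmid. EIF2AK2, on the minus strand of chromosome 2 from 37099210 to 37157065, had 4435 counts in PC3 with circ0003553, against 3007 in the PC3 control. In DU145 it had 5035 counts with circ0003553, against 3439 in the control. Deposited RPKM values were 10.4 with circ0003553 and 8.36 with control in PC3, and 12.8 with circ0003553 and 8.41 with control in DU145. Both circ0003553 libraries were above both control libraries, and the 2 control libraries were nearly level. The TMM-scaled fold was 1.23 in PC3 (95% interval 1.17 to 1.29) and 1.57 in DU145 (1.51 to 1.64). These intervals are exact conditional binomial ones and cover counting error only. They do not overlap, but the difference between the lines was not tested, since each line held 1 library per plasmid.

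Fitted across both lines, EIF2AK2 had a fold of 1.39 (95% interval 1.19 to 1.63) and a log2 fold change of 0.48 ± 0.11 (SE, n = 2 libraries per plasmid). Its adjusted p was 0.0858 by edgeR's quasi-likelihood test, in which the line was a block, and this misses the threshold of 0.05. The unadjusted p was 0.000517 by the same edgeR test, and the change ranked 1305 from the top of 21731 genes. With 1 residual degree of freedom and a prior of 13.4 borrowed from other genes, p-values and SE draw mainly on the spread shared by other genes. Whether the plasmid groups differ by cell culture or by library cannot be told apart from the plasmid itself.

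ADAR, on the minus strand of chromosome 1 from 154582062 to 154627999, encodes the enzyme that converts adenosine to inosine in RNA duplexes. It had 6280 counts in PC3 with circ0003553, against 4191 in the PC3 control, and 14383 in DU145 with circ0003553, against 12557 in the DU145 control. The fold was 1.248 in PC3 (1.20 to 1.30) and 1.23 in DU145 (1.20 to 1.26), so the lines gave overlapping values. The fitted log2 fold change was 0.31 ± 0.10 (adjusted p = 0.297, edgeR's quasi-likelihood test). The 95% interval of the fitted fold was 1.08 to 1.43. Counts of the longer and the shorter isoform are summed in this gene-level value.

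MBNL1, on chromosome 3 from 152243828 to 152465780, encodes a muscleblind splicing regulator that has a fly homologue that promotes a circular RNA from its own transcript. It had 4588 counts in PC3 with circ0003553, against 3272 in the PC3 control, and 6241 in DU145 with circ0003553, against 5864 in the DU145 control. The fold was 1.17 in PC3 (1.12 to 1.22) and 1.14 in DU145 (1.10 to 1.18). Across lines the log2 fold change was 0.21 ± 0.10 (adjusted p = 0.543, edgeR's quasi-likelihood test). MBNL1 shares 11.4% of its exon bases with MBNL1-AS1 on the other strand and 4.15% with RP11-362A9.3, and its counts may hold reads of these genes.

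The other 5 genes had fitted folds between 0.911 and 1.01. DHX9, a helicase on chromosome 1 from 182839369 to 182887751, had 4947 counts in PC3 with circ0003553, against 4591 in the PC3 control, and 7715 in DU145 with circ0003553, against 8437 in the DU145 control. Its folds were 0.897 in PC3 (0.862 to 0.934) and 0.982 in DU145 (0.952 to 1.01). ILF2, on chromosome 1 from 153661788 to 153671048, had folds of 0.938 in PC3 (0.911 to 0.965) and 0.938 in DU145 (0.919 to 0.958), the closest match between lines of the 8. QKI, a STAR-family splicing factor on chromosome 6 from 163414000 to 163578596, had 3370 counts in PC3 with circ0003553, against 3000 in the PC3 control, and 1962 in DU145 with circ0003553, against 2377 in the DU145 control. Its folds were 0.935 in PC3 (0.890 to 0.983) and 0.887 in DU145 (0.835 to 0.942). Counting error alone is thus smaller than some of these differences, while the fit across lines does not separate them from no difference. Halved counts, in case a read pair was counted as 2, gave QKI in PC3 an interval of 0.872 to 1.004, which includes no difference. The halved intervals of QKI in DU145 (0.813 to 0.964), DHX9 in PC3 (0.848 to 0.951) and ILF2 in either line still excluded it. The fitted 95% intervals were 0.814 to 1.08 for DHX9, 0.813 to 1.08 for ILF2 and 0.787 to 1.05 for QKI (adjusted p = 0.866, 0.863 and 0.777 by edgeR's quasi-likelihood test).

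HNRNPL, a splicing factor on chromosome 19 from 38836388 to 38852347, had a fold of 1.03 in PC3 (0.999 to 1.07) and 0.943 in DU145 (0.915 to 0.972). The fitted interval was 0.856 to 1.14 (adjusted p = 0.985, edgeR's quasi-likelihood test). HNRNPL shares 8.22% of its exon bases with AC104534.3 on the same strand. RBM20, a splicing factor best known from heart muscle, lies on chromosome 10 from 110644397 to 110839469. It had 634 counts in PC3 with circ0003553, against 516 in the PC3 control, and 70 in DU145 with circ0003553, against 78 in the DU145 control. Its fold was 1.02 in PC3 (0.909 to 1.15) and 0.964 in DU145 (0.688 to 1.35), the least precise of the 8. Its fitted interval was 0.785 to 1.29 (adjusted p = 0.997, edgeR's quasi-likelihood test).

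**Figure D2:**
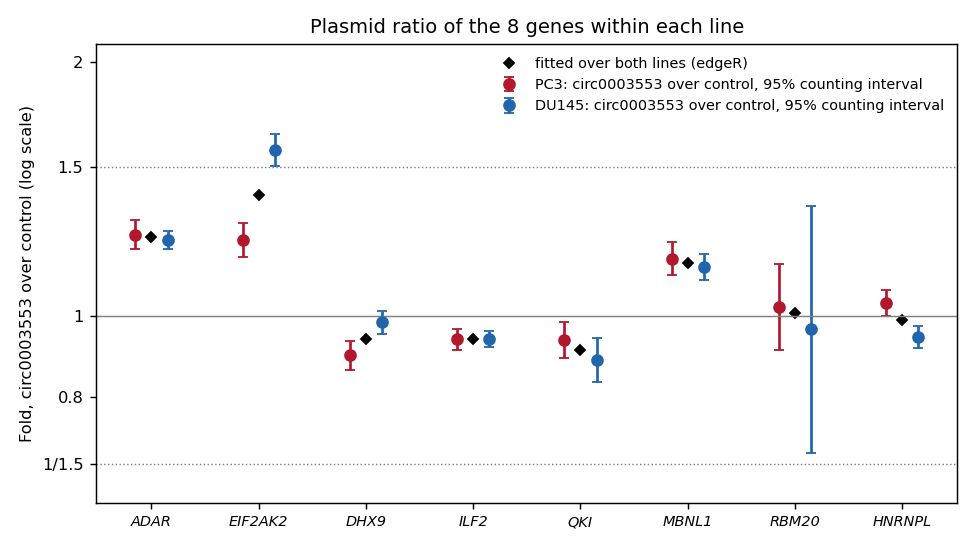
Fold of circ0003553 over control plasmid on a log axis for the 8 genes, within PC3 (red, left) and within DU145 (blue, right) with 95% counting intervals, and fitted over both lines (black diamonds). Dotted lines mark 1.5-fold in either direction, which EIF2AK2 passes in DU145 at 1.57.

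None of the 8 genes was called across the lines at an adjusted p of 0.05, beside 101 of all 21731 tested genes (0.465%), of which 86 were higher (0.396%) and 15 lower (0.069%). At an unadjusted p under 0.05 by edgeR's quasi-likelihood test, 3 of the 8 passed (EIF2AK2, ADAR and MBNL1, all with positive changes), beside 8.88% of all genes, and DESeq2 and limma-voom called 0 of the 8. The median fitted log2 fold change was -0.00436 over the 8 genes and 0.00303 over all tested genes. Within a line, 1 of the 8 was at least 1.5-fold apart in DU145 (EIF2AK2, higher) and 0 in PC3, beside 9.2% of genes with at least 50 counts in DU145 (4.47% higher and 4.73% lower). The share past that fold in PC3 was 5.91% (3.51% higher and 2.4% lower).

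The interferon link of ADAR and EIF2AK2 was set beside a list of 25 interferon-stimulated genes, of which 24 were tested. Of these 18 rose, 0 fell and 6 were not called, with a median log2 fold change of 1.56, and DESeq2 and limma-voom called 14 each. The list was known to be high in these data when it was chosen. The fitted log2 fold change of EIF2AK2 was 0.48 and that of ADAR 0.31, both under the median of the list. The 6 genes of the list that were not called, outside the naming rule and named after their values were seen, were IRF7 (1.13 ± 0.25), DTX3L (0.49 ± 0.12), TRIM22 (0.32 ± 0.52), STAT2 (0.28 ± 0.11), PNPT1 (0.18 ± 0.10) and IRF1 (0.14 ± 0.14). ISG15, at 2.14, and MX1, at 2.32, show the upper part of the list. No test of the difference between these genes and ADAR or EIF2AK2 was made.

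**Figure D3:**
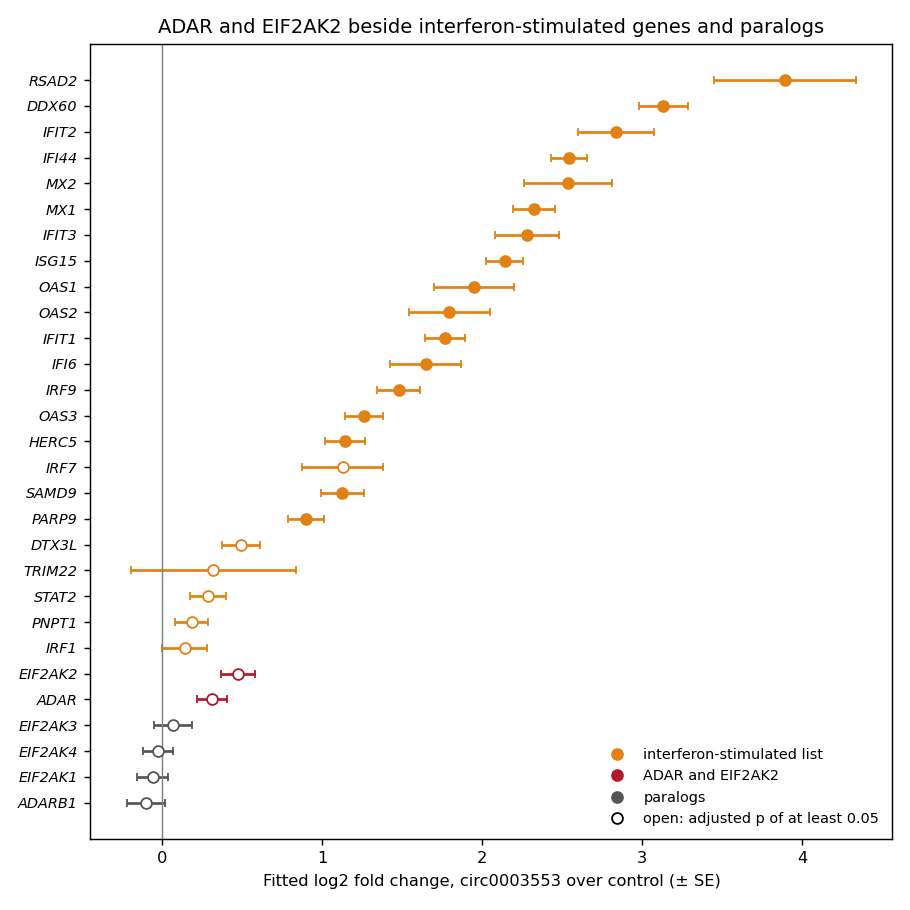
Fitted log2 fold change of circ0003553 over control with SE for ADAR and EIF2AK2 (red), their paralogs (grey) and tested genes of the interferon-stimulated list (orange, 1 gene not shown), with open circles for genes not called. ADAR and EIF2AK2 lie between the paralogs, which are near 0, and most of the list; RSAD2 had 0 counts in the DU145 control, so its position depends on the prior count.

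The fitted changes of the paralogs of ADAR and EIF2AK2 were closer to 0. ADARB1, the other catalytically active adenosine deaminase of this family, had a log2 fold change of -0.10 ± 0.12, against 0.31 ± 0.10 for ADAR. The other eIF2 kinases are EIF2AK1, which senses haem, EIF2AK3, the kinase PERK of the endoplasmic reticulum, and EIF2AK4, the amino acid sensor GCN2. Their log2 fold changes were -0.06 ± 0.10, 0.07 ± 0.12 and -0.03 ± 0.09 (adjusted p = 0.924, 0.938 and 0.972, edgeR's quasi-likelihood test). EIF2AK2 made up 19.7% of the summed RPKM of the 4 kinases in PC3 with circ0003553, against 16.6% in the PC3 control. In DU145 it made up 20.1% with circ0003553, against 13.2% in the control. EIF2AK1 was the most abundant of the kinases in every library, at 40.9% to 50.4% of that sum. Of 21 tested paralogs of the 8 genes 0 were called (0 at an unadjusted p under 0.05 by edgeR, and 0 by DESeq2 or limma-voom). Their highest changes were those of ZFR (0.19 ± 0.11) and DHX30 (0.16 ± 0.10), and their lowest those of KHDRBS3 (-0.26 ± 0.23) and HNRNPLL (-0.22 ± 0.12). Within lines some paralogs differed more. ZFR had a fold of 1.32 in DU145 (1.28 to 1.36) and 0.985 in PC3 (0.948 to 1.02). MBNL3, with 43 to 81 counts a library, had folds of 1.65 in DU145 (1.11 to 2.48) and 0.709 in PC3 (0.507 to 0.990). These folds cancel in the fit. Halving the counts, in case a read pair was counted as 2, widened the DU145 range to 0.911 to 2.90. The PC3 range then became 0.440 to 1.14. With halved counts, MBNL3 was thus not separated from no difference within either line.

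Wider parts of the circular RNA pathway were tested in the same fit. Of 32 other regulators of back-splicing 0 were called by edgeR, DESeq2 or limma-voom (0 at an unadjusted p under 0.05), with a median log2 fold change of 0.01. The highest were EWSR1 (0.21 ± 0.12) and CLK1 (0.15 ± 0.10), a kinase of splicing factors. The lowest were SRSF11 (-0.16 ± 0.10) and TNPO1 (-0.10 ± 0.10). Of 22 tested genes of circular RNA export and turnover 0 were called by the same tools (1 at an unadjusted p under 0.05 by edgeR), with a median of 0.00298. The highest were METTL14 (0.22 ± 0.10) and AGO2 (0.12 ± 0.11), and the lowest reported here was RPP25L (-0.27 ± 0.17).

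Among 20 tested regulators of PKR and genes of the eIF2 pathway 1 rose and 0 fell by edgeR (median 0.03), while DESeq2 and limma-voom called 0. At an unadjusted p under 0.05 by edgeR there were 4, PPP1R15A and, named after their values were seen, TRIB3 (0.63 ± 0.14), DDIT3 (0.63 ± 0.16) and ATF4 (0.27 ± 0.10). PPP1R15A, also called GADD34, brings a phosphatase to eIF2 and so reverses the action of PKR. It had 16310 counts in PC3 with circ0003553, against 9975 in the PC3 control, and 17523 in DU145 with circ0003553, against 6215 in the DU145 control. Its fold was 1.36 in PC3 (1.33 to 1.40) and 3.03 in DU145 (2.94 to 3.118). The fitted log2 fold change was 1.02 ± 0.18 (adjusted p = 0.0202, edgeR's quasi-likelihood test). PPP1R15A missed the threshold under 6 alternatives, with an adjusted p of 0.9999 by DESeq2, 0.339 by limma-voom, 0.0871 by edgeR with legacy dispersions, 0.8004 when low counts were kept, 0.0721 from halved counts and 0.9999 when the line was no block. Of 16 other tested proteins that bind RNA duplexes 7 rose and 0 fell, with a median of 0.16. These were DDX58, IFIH1, DHX58, OAS1, OAS2, OAS3 and OASL, all known to be induced by interferon. OAS1, OAS2 and OAS3 are also on the interferon-stimulated list, so these calls are counted in both. DHX58 had 0 counts in both PC3 libraries, and in DU145 it had 419 with circ0003553, against 130 in the control, so its call rests on DU145. DESeq2 and limma-voom called 3 of the 16 each.

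The second comparison set PC3 against DU145, with the plasmid as the other term of the same model. Of the 8 genes 2 were higher in PC3, 5 were lower and 1 was not called. This stands beside 65.9% of all tested genes called between the lines (33.1% higher and 32.8% lower in PC3), so a call in itself is common. RBM20 was 8.32-fold higher in PC3 (95% interval 6.41 to 10.8), or 3.06 ± 0.18 on the log2 scale (adjusted p = 1.13e-09, edgeR's quasi-likelihood test). The PC3 libraries held 634 and 516 counts of it, and the DU145 libraries 70 and 78, so the lines did not overlap. Its difference between PC3 and DU145 exceeded that of 94.4% of tested genes. Markers of heart and skeletal muscle summed to 8.99 and 8.85 CPM in the PC3 libraries and to 5.84 and 5.41 CPM in the DU145 libraries, with MYH7, ACTC1 and CKM under 1 CPM throughout. TTN carried nearly all of the PC3 sum. These sums were scaled by library totals, and the values of single markers by TMM, so the scales differ slightly. TTN was at 8.63 and 8.79 CPM in PC3 and at 3.53 and 3.49 CPM in DU145. TNNT2 was at 0.464 and 0.371 CPM in PC3 and at 1.85 and 1.29 CPM in DU145. Their part in the RBM20 difference was not tested. QKI was 1.59-fold higher in PC3 (1.37 to 1.84), at 4.91 and 5.17 RPKM in PC3 and 3.10 and 3.597 RPKM in DU145 (adjusted p = 3.03e-05, edgeR's quasi-likelihood test).

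ADAR was lower in PC3, at 19.0 RPKM with circ0003553 and 14.999 with control, against 47.2 and 39.5 RPKM in DU145. The fold of PC3 over DU145 was 0.411 (95% interval 0.356 to 0.474; log2 fold change -1.28 ± 0.10, adjusted p = 2.12e-08, edgeR's quasi-likelihood test). The PC3 library with circ0003553 therefore held less ADAR than the DU145 library with control plasmid. ILF2 had a fold of 0.554 (0.480 to 0.640), DHX9 of 0.636 (0.551 to 0.734), MBNL1 of 0.690 (0.599 to 0.794) and HNRNPL of 0.804 (0.697 to 0.927). Their adjusted p-values were 1.95e-06, 2.91e-05, 0.000165 and 0.00975 by edgeR's quasi-likelihood test. All 4 had both PC3 libraries under both DU145 libraries. EIF2AK2 had a fold of 0.944 (0.806 to 1.11; adjusted p = 0.511, edgeR's quasi-likelihood test). Between the circ0003553 libraries its log2 difference of PC3 and DU145 was -0.26, and between the control libraries it was 0.10, so the sign depended on the plasmid.

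**Figure D4:**
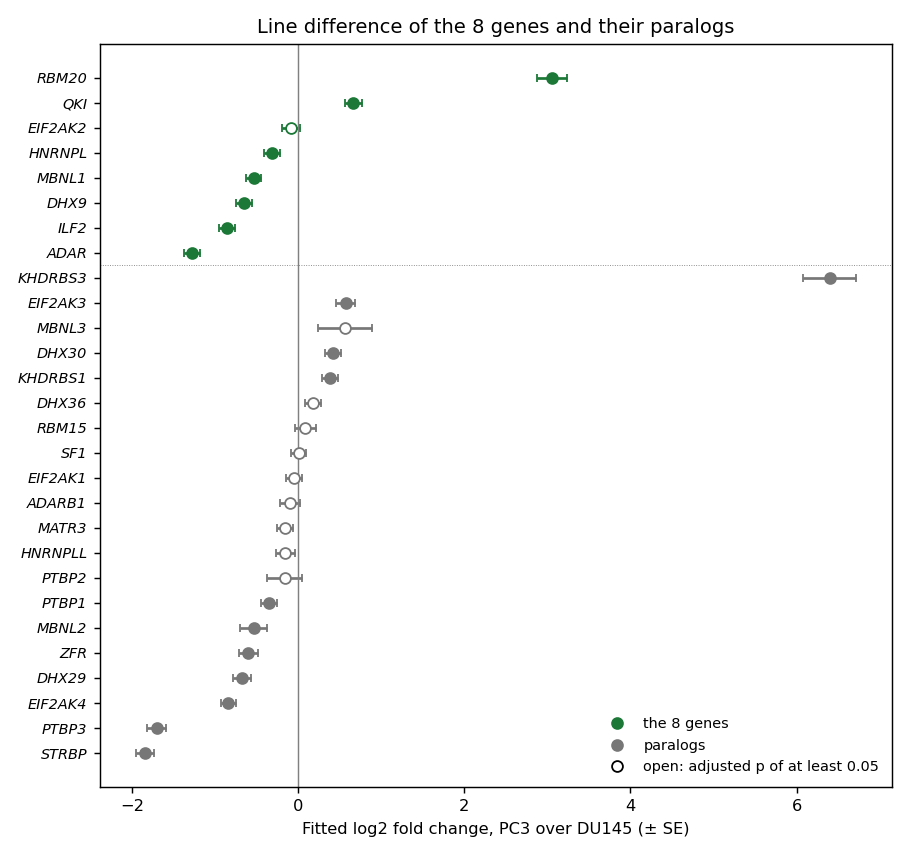
Fitted log2 fold change of PC3 over DU145 with SE for the 8 genes (green, upper block) and tested paralogs (grey, lower block, 1 gene not shown), with open circles for genes not called. RBM20 and QKI lie right of 0, EIF2AK2 near 0 and the other 5 genes left of it.

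Ratios between the genes, and shares within their families, were set side by side for the lines. ADAR was 1.82 and 1.79 times as abundant as EIF2AK2 in PC3, against 3.68 and 4.70 times in DU145. ADARB1 had a fold of 0.934 between lines (0.781 to 1.12; adjusted p = 0.486, edgeR's quasi-likelihood test). MBNL1 made up 87.1% to 88.9% of the summed RPKM of the 3 muscleblind genes in the 4 libraries, and HNRNPL 86.6% to 89.2% of its sum with HNRNPLL.

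Of the 21 tested paralogs 5 were higher and 7 lower in PC3, beside 33.1% higher and 32.8% lower of all tested genes. KHDRBS3, like QKI a STAR-family gene, had 406 and 389 counts in PC3 and 2 and 8 in DU145, a fitted fold of 84.3 (52.2 to 136; adjusted p = 2.77e-10, edgeR's quasi-likelihood test). KHDRBS1, of the same family and far more abundant, had a fold of 1.31 (1.13 to 1.50). PTBP3 and STRBP were lower in PC3, with folds of 0.308 (0.259 to 0.365) and 0.279 (0.237 to 0.327). The next counts stand beside the same shares of all tested genes. Among other regulators of back-splicing 10 of 32 were higher and 8 lower in PC3. Among genes of export and turnover 10 of 22 were higher and 9 lower, and among PKR regulators and eIF2 genes 10 of 20 were higher and 4 lower. Markers of other cells also differed between lines. The 4 endothelial genes summed to 56.2 and 64.4 CPM in PC3 and to 0.932 and 0.473 CPM in DU145, with CDH5 and VWF under 1 CPM in every library. KDR and PECAM1 made up nearly all of that sum in PC3, where VWF had 0 counts in both libraries. Sums of markers were scaled by library totals, and values of single markers by TMM, so the scales differ slightly. In PC3, KDR was at 41.8 and 48.4 CPM and PECAM1 at 15.3 and 18.1 CPM. The 5 genes of fibroblasts and smooth muscle summed to 40.6 and 36.5 CPM in PC3 and 5.57 and 7.33 CPM in DU145, with DCN and PDGFRB under 1 CPM. COL1A1 carried nearly all of the PC3 sum (39.1 and 35.7 CPM scaled by TMM). On the TMM scale ACTA2 was at 1.29 and 0.897 CPM in PC3 and at 1.88 and 1.59 CPM in DU145. Every gene of the deposited count table had counts in some library, so a marker without any counts would be missing from it. Of 5 listed leukocyte markers 4 were in that table. The part of the markers of other cells in the line differences was not tested.

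ADAR, ILF2 and DHX9 all lie on chromosome 1, and ADAR and ILF2 are close to each other. There were 82 other tested genes with their lowest coordinate within 1 Mb of ADAR. Of these, 73 were lower and 3 higher in PC3. Their median log2 fold change was -1.17, beside 0.000991 over all tested genes. Of 43 such genes around ILF2, 35 were lower and 1 higher, with a median of -1.15, and 35 genes were neighbours of both. The differences of ADAR itself (-1.28) and ILF2 itself (-0.85) were thus of the same sign as those of their neighbours. Around DHX9, 7 of 14 were lower and 3 higher (median -0.53), and around HNRNPL, 32 of 54 were lower and 7 higher (median -0.62). These counts of neighbours stand beside 32.8% lower and 33.1% higher of all tested genes. QKI had 0 tested neighbours. Around RBM20 the median of 17 neighbours was 0.31, well under the 3.06 of RBM20 itself, and around MBNL1 the median of 10 was 0.04, while MBNL1 had -0.54. For EIF2AK2 the median of 21 neighbours was -0.25. Neighbours share a chromosome segment and are not independent, and no test was made. For the plasmid comparison none of these neighbours was called.

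**Figure D5:**
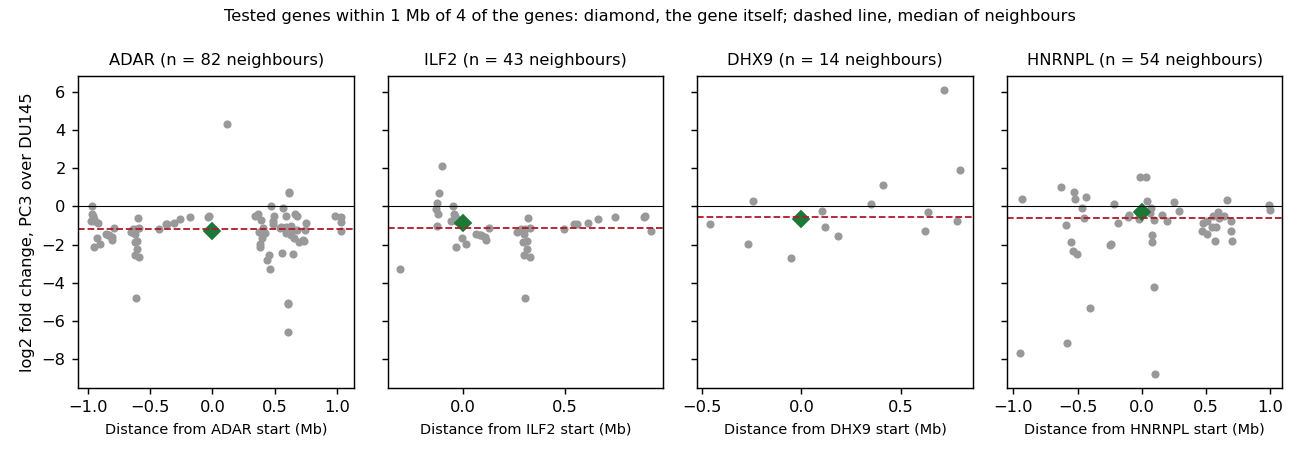
Log2 fold change of PC3 over DU145 for tested genes within 1 Mb of ADAR, ILF2, DHX9 and HNRNPL, against distance from the gene. The start named on the axis is the lowest coordinate of the gene, whatever its strand. Grey points are neighbours, the green diamond is the gene itself, the dashed line is the median of the neighbours, and the points around ADAR and ILF2 lie mostly below 0.

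The genes whose pattern over the 4 libraries was nearest were found by the Euclidean distance between log2 CPM values, each gene centred on its own mean, among 10333 genes whose mean log2 CPM reached 3. Nearest to EIF2AK2 were RP11-123K3.9 (distance 0.03), RP11-135A24.4 (0.09) and RP11-437B10.1 (0.11). Nearest to ADAR were MFSD14B (0.04), RP11-529K1.2 (0.06) and UBE2H (0.07). Nearest to RBM20 were TRIB1 (0.10), MIB2 (0.10) and DAB2 (0.12), and nearest to QKI were VRK1 (0.02), SNRPD2 (0.02) and GID8 (0.03). Nearest to ILF2 was PSMB4 (0.02), which also lies on chromosome 1. Nearest to DHX9 was ATP5S (0.01), to MBNL1 LGMN (0.02) and to HNRNPL TRUB2 (0.02). These distances describe the 4 libraries alone.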

How the data were processed

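The authors deposited raw counts for each gene and a second table of RPKM. The RPKM values of the authors equalled counts divided by gene length and library total, to within a relative difference of 1e-09. Per the submitters' processing notes, Trimmomatic 0.36, featureCounts, Subread 1.5.1, edgeR 3.12.1 and hg38 were used; per the labels' protocols, ribosomal RNA was depleted and stranded libraries carried molecular identifiers. The aligner, strand setting and handling of identifiers were not stated in the labels or notes. Of low counts (1 to 20), 70.3% to 75.3% were even, so a read pair may often count as 2, and counting intervals are then too narrow. Columns carrying NC were taken as control and those carrying RCAN3 as overexpression.

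Counts were fitted with edgeR 4.0.16 under R 4.3.3 (quasi-likelihood test, terms for cell line and plasmid), with TMM scaling, filtering by plasmid and Benjamini-Hochberg adjustment over 21731 genes. The cell line, given by the labels, is the block. SE is the fitted change divided by the square root of F. Within a line, ratios are values with 95% intervals and no test. Alternatives used limma 3.58.1 and DESeq2 1.42.0. Scripts were tested on simulated data. Values of some listed genes are not reported here, though counts of lists include them. The named genes were the 8, called genes of each list or, with no call, the 2 highest and 2 lowest changes, paralogs, and nearest genes by distance; exceptions are said to be such where they stand. Of 23 export and turnover symbols 22 were found in the count table, of 17 duplex-binding symbols 16, and of 26 paralogs 21. That table holds only genes with counts, so a symbol not found may be a gene without counts or one under another name. Members and lists were chosen with earlier results of these data known. Promoters are from RefSeq (GRCh38.p14). P-values measure only the spread between these libraries, and nothing says which came from separate cultures.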

Additional observations from a re-analysis of the deposited data

How the results depend on the processing

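None of the 8 genes changed its side of the threshold in either comparison under the alternatives run, and the sign held except as follows, none of it called: RBM20 between plasmids (-0.05 to 0.03), HNRNPL between plasmids within a line (0.05 in PC3 and -0.08 in DU145) and EIF2AK2 between lines within a plasmid (-0.26 with circ0003553 and 0.10 with control). The log2 fold change of EIF2AK2 between plasmids was 0.47 to 0.48 over 8 alternatives (adjusted p 0.0696 to 0.9999), and with a line left out it was 0.30 in PC3 and 0.65 in DU145. That of ADAR was 0.30 to 0.32 (adjusted p 0.145 to 0.9999 over 9 alternatives). EIF2AK2, ILF2, MBNL1 and HNRNPL share exon bases with other genes and gave no value among genes sharing none. Leaving out a library leaves no residual degrees of freedom, so counts of calls have no such value. Over all genes, calls between plasmids numbered 101 of 21731 tested, against 62 with DESeq2, 53 with legacy dispersions and 26 with limma-voom over the same genes, 9 of 35211 without a filter and 48 of the 10797 tested genes that share no exon base. With no replicate block (cell line left out) edgeR called 0, with 26 genes at an unadjusted p under 0.05, so pairing by line decides that count. Between lines 7040 of those 10797 genes were called, against 14331 of 21731, a lower count because fewer genes were tested. Genes 1.5-fold apart numbered 497 in PC3 and 1001 in DU145 with halved counts, 267 and 625 at 200 counts or more, and 201 and 357 at 2-fold, against 1026 and 1624; the 8 genes included EIF2AK2 in DU145 alone at 1.5-fold and none at 2-fold. Depth limits RBM20 in DU145 (70 and 78 counts).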
